A study of Homo sapiens with 12 samples.

Results

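KLF5, KLF4, KLF6 and KLF10 encode Krüppel-like transcription factors that are known from epithelia, and the chromatin at these 4 genes was examined for summits of the EGFR chimera. The genes were taken as a fixed list, each was extended by 1000 bp on either side, and every chromatin immunoprecipitation sequencing (ChIP-seq) summit inside these limits was kept. They are 4 of 19970 protein-coding genes on chromosomes 1 to 22 and X. Their limits held 4 of the 2186 summits listed in the 4 libraries, and all 4 summits were at KLF5. KLF4, KLF6 and KLF10 had none in any library, so that a shared pattern of the 4 genes was not seen. Whether the genes were transcribed was not measured in these files.

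The cells were B2B1, a clone of MCF10A-5E, itself a clone of the established human breast epithelial line MCF-10A. B2B1 carries an EGFR chimera and an Erbb2 chimera in all groups, whose extracellular part comes from NGFR, so that the chimeras do not answer to ErbB ligands. The small molecule AP21967 (AP) joins them into heterodimers. Cells were grown for 7 days in overlay culture, on plastic plates in medium containing 2% matrigel and 5 ng/ml EGF. In the AP group 0.5 µM AP was present for the last 24 h, and the vehicle group, labelled minus AP, received 0.1% ethanol instead. Each group had 2 libraries immunoprecipitated through the GluGlu tag of the EGFR chimera, labelled biological replicates, and all come from 1 clone. The input and the IgG libraries of the study were not used here, and no control immunoprecipitate stands beside these values.

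A summit is the highest point of a peak, called by the authors for each library by itself, and its score is the −log10 of the q-value. Lists differed in length and composition. Vehicle replicate 1 held 739 summits and vehicle replicate 2 held 56, whereas AP replicate 1 held 1094 and AP replicate 2 held 297. Of the summits in the replicate 1 lists, 9.34% (vehicle) and 9.23% (AP) lay within protein-coding genes extended by 1000 bp, compared with 76.8% and 79.1% in the replicate 2 lists. The lists carry no read numbers. Depth is therefore unknown, and a list without a summit at a gene does not show that the chimera was absent there.

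Krüppel-like factors bind GC-rich and CACCC sequences in promoters through zinc fingers at their carboxy terminus. KLF5 promotes proliferation in basal epithelial layers, and KLF4 promotes differentiation and barrier formation. KLF6 is a broadly expressed factor that is quickly induced after cell stimulation. KLF10 was described as an early response gene of TGF-β and mostly acts as a repressor.

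The sequences below carry the KLF5 summits except the exon 1 summit of AP replicate 2, at 73059276, which lies outside both printed regions. They were read from GRCh38 on the plus strand, which is the strand of KLF5. The promoter is the 250 bp before the start of the canonical transcript, at chr13:73058755-73059004, and includes the vehicle summit. It is identical to the RefSeq sequence before this start in GRCh38.p14. Capitals mark the boxes CACCC and GGGCGG, searched on both strands. The other region is the part of intron 1 that surrounds the intron 1 summits of both AP libraries, at chr13:73061150-73061387. There capitals mark TNTTT or TTTNT on either strand, with overlapping matches merged.
KLF5 promoter: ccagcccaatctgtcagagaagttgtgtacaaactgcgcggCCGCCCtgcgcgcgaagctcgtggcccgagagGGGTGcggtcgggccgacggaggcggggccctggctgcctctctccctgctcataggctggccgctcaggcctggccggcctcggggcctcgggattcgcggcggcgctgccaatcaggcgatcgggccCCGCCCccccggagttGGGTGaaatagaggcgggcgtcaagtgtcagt
KLF5 intron 1: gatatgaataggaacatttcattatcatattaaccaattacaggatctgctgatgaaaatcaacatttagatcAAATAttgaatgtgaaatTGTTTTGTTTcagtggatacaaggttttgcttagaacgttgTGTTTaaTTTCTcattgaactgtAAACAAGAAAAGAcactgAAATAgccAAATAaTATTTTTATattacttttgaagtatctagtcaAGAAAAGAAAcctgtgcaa

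KLF5 (ENSG00000102554.14) occupies chromosome 13 from 73054976 to 73077541 on the plus strand. Its canonical transcript ENST00000377687.6 starts at 73059005 and has 4 exons, and an annotated longer transcript begins at the start of the gene. No other annotated gene lay within the limits. Vehicle replicate 1 had 1 summit at 73058846, which was 159 bp upstream of the canonical start and inside the first intron of the longer transcript. Vehicle replicate 2 had none, and its nearest summit on chromosome 13 was 21.6 Mb from the gene. AP replicate 1 had 1 summit at 73061250, 2245 bp downstream of the canonical start in intron 1. AP replicate 2 had 2 summits, at 73059276 in the 5′ UTR of exon 1, 271 bp from the start, and at 73061287 in intron 1, 2282 bp from it. The summits fell at 2 places, one around the canonical start and one in intron 1, where exon 2 begins 611 and 574 bp further on. A short annotated transcript, ENST00000476859.1, starts 671 and 708 bp from the intron 1 summits.

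**Figure D1:**
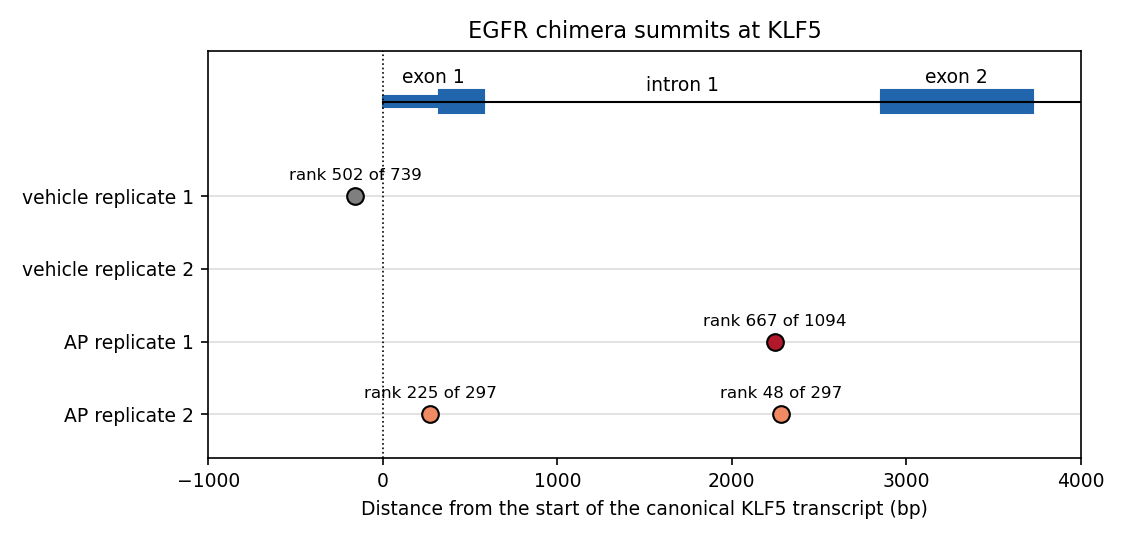
Summits of the EGFR chimera at KLF5 by library, by distance in bp from the canonical transcript's start (dotted line). Thick boxes are coding and thin boxes untranslated parts of exons, points are summits with their rank in the list, and the intron 1 place is occupied in both AP libraries, at 2245 and 2282 bp.

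The intron 1 place was listed by both AP libraries and by neither vehicle library. With each list shortened to its 56 highest-scoring summits, 0 KLF genes were listed by both AP libraries, and of the KLF5 summits the intron 1 summit of AP replicate 2, at rank 48, remained. The summits of AP replicates 1 and 2 there were 37 bp apart. Of the 235 AP replicate 2 summits in protein-coding genes, 56 had an AP replicate 1 summit within 1000 bp. Their median distance was 180 bp, as a measure of how close shared summits usually were. At 37 bp or less were 6 of the 56 (10.7%), the KLF5 summit included. The nearest vehicle summit was 2404 bp from the AP replicate 1 summit and 2441 bp from that of replicate 2. Among the 56 shared places, 18 (32.1%), with the KLF5 place included, had no vehicle summit within 1000 bp. By all summits, vehicle replicate 1 (739) was longer than AP replicate 2 (297). Within protein-coding genes, both AP lists (101 and 235 summits) were longer than both vehicle lists (69 and 43). The presence of AP and the length of the list within protein-coding genes therefore cannot be told apart at this place.

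The place around the canonical start was listed in both conditions, once each. The vehicle replicate 1 summit and the exon 1 summit of AP replicate 2 were 430 bp apart, on either side of the start. For places shared by the AP libraries the upper quartile of the distance was 412.25 bp. Whether the summits around the start mark the same site was not tested. Vehicle replicate 2 and AP replicate 1 had no summit within 1000 bp of the start. Thus 2 of the 4 KLF5 summits lay within 1000 bp of the canonical start and all 4 within 2500 bp. The limit of 2500 bp was set after the summits had been seen. Within 2500 bp of a canonical start lay 47.8 and 74.4% of summits in protein-coding genes in vehicle replicates 1 and 2. In AP replicates 1 and 2 these shares were 43.6 and 80.4%. Over all summits in protein-coding genes, the share within 1000 bp of a canonical start was 24.6% in vehicle replicate 1, 53.5% in vehicle replicate 2, 25.7% in AP replicate 1 and 61.7% in AP replicate 2.

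In both replicate 1 lists the KLF5 summit was in the lower part of the ranking. In vehicle replicate 1 the summit scored 4.02 and ranked 502 of 739, and in AP replicate 1 it scored 4.27 and ranked 667 of 1094. In AP replicate 2 the intron 1 summit scored 7.37 and ranked 48 of 297, whereas the exon 1 summit scored 2.93 and ranked 225 of 297. Scores depend on depth and were read within a list only. Restricted to summits in protein-coding genes, the ranks were 44 of 69 in vehicle replicate 1, 58 of 101 in AP replicate 1, and 35 and 175 of 235 in AP replicate 2. The intron 1 summit of AP replicate 2 was thus the one KLF5 summit in the upper part of its list.

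**Figure D2:**
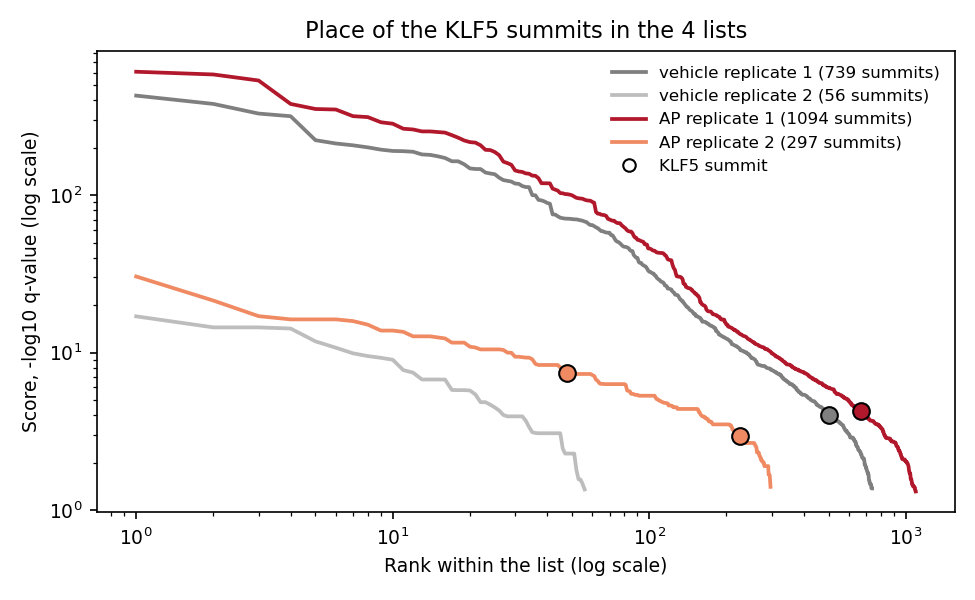
Score (−log10 q-value, log axis) against rank within the list (log axis) for the 4 libraries, with the KLF5 summits as circles. The circles stand at ranks 502 of 739, 667 of 1094, and 48 and 225 of 297, and vehicle replicate 2, with 56 summits, has none.

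The places of KLF5 differed in base composition. In the 201-bp windows centered on the summits, G and C made up 72.6% at the vehicle replicate 1 summit and 72.1% at the exon 1 summit of AP replicate 2. In intron 1 they made up 27.4% in AP replicate 1 and 28.9% in AP replicate 2. The median over 448 such windows at summits in protein-coding genes was 52.7%, with quartiles of 43.7 and 63.2%. The intron 1 summit had the lowest value of the 101 windows of AP replicate 1, and 4 of the 235 windows of AP replicate 2 were lower than that of its intron 1 summit. The AP summits in intron 1 were therefore at the AT-rich end of the composition seen at summits in protein-coding genes, and the summits around the start were near the GC-rich end. The windows of the intron 1 summits overlap and thus hold mostly the same bases.

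**Figure D3:**
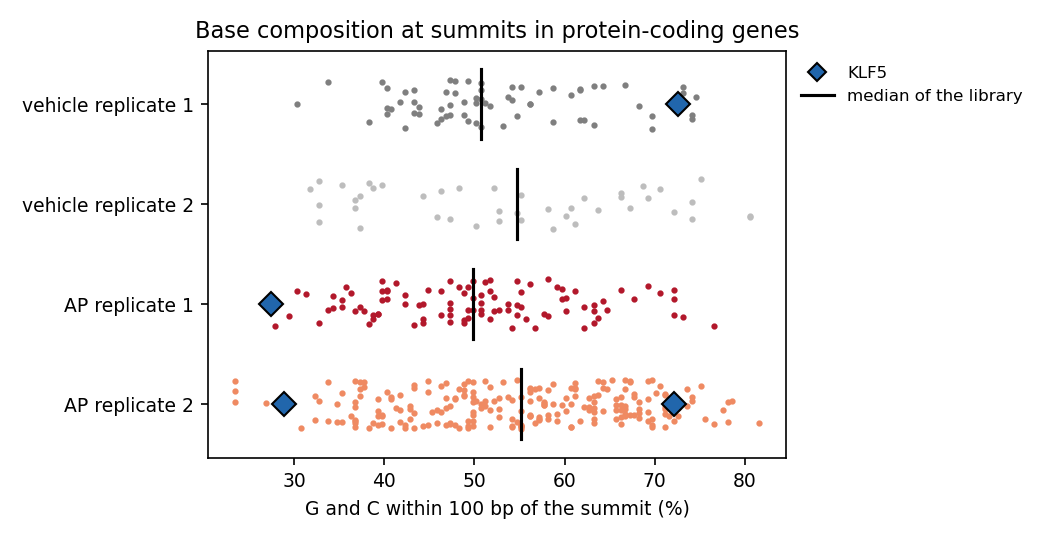
Percentage of G and C in the 201-bp window around each summit in a protein-coding gene (extended by 1000 bp), by library, with vertical spread added for display. Diamonds are the KLF5 summits, at 72.6% in vehicle replicate 1, 27.4% in AP replicate 1, and 72.1 and 28.9% in AP replicate 2, and black lines are the medians of the libraries, from 49.8 to 55.2%.

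Motifs were searched in the same regions. CACCC, the box bound by Krüppel-like factors, occurred 2 times in the printed promoter, and the nearer match was centered 16 bp from the vehicle summit. GGGCGG, the box of SP and KLF factors, also occurred 2 times there. These letters were found in the 250 bp before 54.7% (CACCC) and 42.6% (GGGCGG) of the 35116 RefSeq starts, so both are common in promoters. Neither was present in the printed part of intron 1. Around summits in protein-coding genes, 42.9% of the 448 windows held CACCC and 25.2% held GGGCGG. The vehicle replicate 1 window held 1 CACCC and 1 GGGCGG. The exon 1 window of AP replicate 2 held 2 CACCC, with as many or more in 10.3% of the windows, and 0 GGGCGG. The AP-1 site TGANTCA and the STAT site TTCNNNGAA had 0 matches in both printed regions, and 3.79% and 4.69% of the windows held them. An AT-rich pentamer, TNTTT or TTTNT, has been described at promoters bound by EGFR, and it was counted here after the composition had been seen. It started at 14 positions in the window of AP replicate 1 and 17 in that of AP replicate 2, on either strand, against a median of 3 in the 448 windows. As many or more were found in 8.26% and 5.13% of the windows. The pentamer consists mostly of T or A, so its count rises with AT content. Windows of like composition were not compared, and nothing is read from the count. The vehicle replicate 1 window had 1 match and the exon 1 window none. The printed promoter had 2, which are not marked there. At least 1 match was present in 81.0% of the windows and in 80.8% of the promoters, and a match is a description of the letters and not a binding site.

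Sequence copies were counted at the 4 genes because reads with several places in the genome cannot be assigned. None of the 427 sequences of 75 bp within 250 bp of each KLF5 summit occurred elsewhere in GRCh38. Within the extended limits, 0 of 7557 such sequences of KLF4 and 0 of 11212 of KLF6 occurred elsewhere, as did 18 of 8868 (0.203%) of KLF10 and 68 of 24492 (0.278%) of KLF5. By this count of exact copies, the share was no higher at the genes without a summit than at KLF5. Whether repeated sequence bears on the absence of summits there was not tested.

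KLF4 (ENSG00000136826.15) occupies 107484852 to 107490482 on chromosome 9, minus strand, and its canonical transcript ENST00000374672.5 has 5 exons. The nearest summit in any list was 14.5 Mb away, in AP replicate 2. KLF6 (ENSG00000067082.15) occupies 3775996 to 3785281 on chromosome 10, minus strand, and the nearest summit was 36.2 Mb away, in AP replicate 1. KLF10 (ENSG00000155090.15) occupies 102648784 to 102655725 on chromosome 8, minus strand, and the nearest summit was 0.76 Mb away, in AP replicate 2. The values of these 3 genes were 0 in each of the 4 libraries. G and C made up 69.2% of the 250 bp before the RefSeq start of KLF4 and 72.4% for KLF6. The value was 70.8% before the canonical start of KLF5 and 40.8% before the start of its longer transcript. For KLF10 no RefSeq promoter was among the sequences used. The median over all RefSeq starts was 58.0%.

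The genes differed in length, and a longer gene has more room for a summit. KLF5 spans 22566 bp, against 5631 bp for KLF4, 9286 bp for KLF6 and 6942 bp for KLF10, and the median over protein-coding genes was 27476.5 bp. A window of equal size for every gene, within 2500 bp of the canonical start, was added after the summits had been seen. All KLF5 summits were already known to lie inside it, so its count does not test the role of gene length. KLF5 had 1, 0, 1 and 2 summits there, in the 4 libraries ordered as vehicle 1, vehicle 2, AP 1 and AP 2. The other members had 0. In that window 0.12, 0.125, 0.18 and 0.891% of protein-coding genes had a summit, in the same order.

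A summit inside the limits was rare among genes as a whole. Of 19970 protein-coding genes, 0.175% had one in vehicle replicate 1, 0.16% in vehicle replicate 2, 0.32% in AP replicate 1 and 1.13% in AP replicate 2, and 1.31% in any library. KLF5 was 1 of 4 members in vehicle replicate 1 and in both AP libraries, and 0 of 4 members had a summit in vehicle replicate 2. Both vehicle libraries listed 18 genes (0.0901%), without a member among them, and both AP libraries listed 36 (0.18%), with KLF5 among them. The members had been proposed with results of these lists in view, so that nothing is read from their share.

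The presence of KLF5 in 3 libraries, counted by gene, was an uncommon combination. The summits of vehicle replicate 1 and AP replicate 1 were 2404 bp apart, and neither place of KLF5 was listed in all 3 libraries. Of the 36 genes listed in both AP libraries, 16 were also listed in both vehicle libraries, 15 in neither, 2 in vehicle replicate 1 only and 3 in vehicle replicate 2 only. KLF5 and CLASP1 were the 2 in vehicle replicate 1 only. By the Euclidean distance between summit numbers over the 4 libraries, 7 genes were nearest to KLF5, at a distance of 1. The 3 of them with the best ranks in AP replicate 2 were H2AC20 and H2BC21, neighboring histone genes that shared the same summits, and MYC, a growth-promoting transcription factor. Each had 0, 0, 1 and 2 summits in that order of libraries, against 1, 0, 1 and 2 for KLF5. KLF4, KLF6 and KLF10 were each tied with 19708 other protein-coding genes without a summit in any list.

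The number of summits at the 4 genes was compared between the conditions. The sum over the members was 1 and 0 in the vehicle libraries and 1 and 2 in the AP libraries, and the conditions overlapped at 1. The mean was 0.5 ± 0.707 (SD, n = 2) in the vehicle group and 1.5 ± 0.707 (SD, n = 2) in the AP group (exact two-sided permutation test of the 4 libraries, p = 0.667, adjusted over 2 tests 0.667). As a share of the list, the values were 0.135% and 0% without AP and 0.0914% and 0.673% with AP, with means of 0.0677% ± 0.0957 (SD, n = 2) and 0.382% ± 0.412 (SD, n = 2) (exact two-sided permutation test, p = 0.667, adjusted 0.667). A design of 2 against 2 cannot give a p below 0.333, so these tests cannot decide whether the conditions differ. Without AP replicate 2, the difference in share fell from 0.315 to 0.0237 percentage points.

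**Figure D4:**
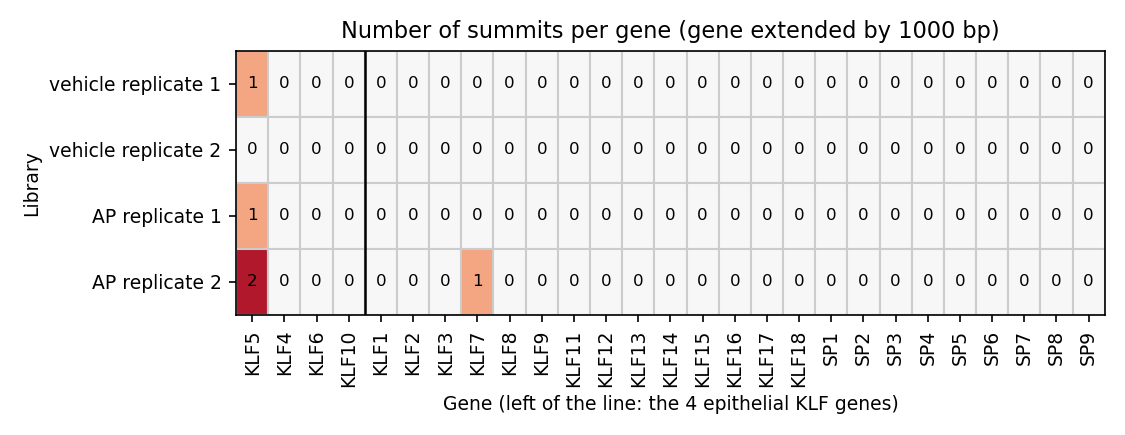
Number of summits within each gene extended by 1000 bp, for the 4 epithelial KLF genes (left of the line) and the other 23 genes of the KLF and SP family, by library. KLF5 has 1, 0, 1 and 2 summits, KLF7 has 1 in AP replicate 2, and all other cells are 0.

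Among the other 23 genes of the KLF and SP family, which share the zinc finger domain, 1 had a summit (4.35%), compared with 1.31% of all protein-coding genes. This was KLF7, a factor known from neurons and fat cells, with 1 summit in AP replicate 2, 869 bp upstream of its canonical start and inside the gene, which ranked 37 of 297. In that library 2 of the 27 family genes had a summit, whereas in vehicle replicate 1 and AP replicate 1 KLF5 was alone, and in vehicle replicate 2 there was none. Presence in AP replicate 2 alone, as at KLF7, held for 177 of the 261 protein-coding genes with a summit in any library. The median number of summits over the family was 0, as over all protein-coding genes. The family list, too, was chosen with earlier results of these data known, and nothing is read from its share.

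Of 20 other transcription factors known from epithelia, 4 had a summit (20.0%, compared with 1.31% of all protein-coding genes in any library). The median number was 0 in each list. These 20 genes were chosen with earlier results of these data known, so that nothing is read from their share. CEBPD, a stress-induced factor of the C/EBP family, was listed in all 4 libraries, with 3 summits in AP replicate 1 and 2 in each of the other libraries. CEBPB and TFAP2A were listed in AP replicate 2 alone, as were 177 of the 261 protein-coding genes with a summit in any library. CEBPB, of the same family as CEBPD, had 2 summits there, at 91 and 1523 bp from its canonical start. TFAP2A, a factor of ectodermal tissues, had 1 at 1016 bp upstream. TP63, GRHL2, ELF3 and 13 further genes of the list had none in any list. In vehicle replicate 2, where KLF5 was not listed, CEBPD ranked 21 and 37 of 56. Its ranks were 583 and 694 of 739 in vehicle replicate 1, and 440, 771 and 1057 of 1094 in AP replicate 1. For AP replicate 2 they were 21 and 84 of 297. The CEBPD summits at 1671 to 2103 bp from the canonical start lay downstream of the gene, within the limits.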

How the data were processed

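The authors mapped reads of 75 bp to GRCh38 with Bowtie2 2.2.9, retained unique and non-duplicate reads, and ran MACS2 2.2.7.1 at default settings on each library with input chromatin as control. The deposited summit lists give a position and the −log10 of the q-value, and all scores exceeded 1.301, that of a q-value of 0.05. Depth is unknown, so no interval was given. Libraries were grouped by their titles. The members, lists and tests were chosen with earlier results of these data known. Genes came from GENCODE 44, a later annotation of the same build, and summits were matched to them in Python 3.11.15 with numpy 2.4.6, pandas 2.3.3 and scipy 1.17.1 (figures with matplotlib 3.10.9). The code was tested on simulated summits. Named genes were the members, all genes of both lists (23 KLF and SP genes, 20 epithelial factors) with a summit, except 1 that is not reported here, and the 3 genes nearest to each member in summit numbers. CLASP1, and the 3 listed factors named for having no summit, were named after their values had been seen. The alternatives changed the limits, score minimum, merging, list length, denominator, distances and replicates. Replicates are labelled biological, but separate cultures are not described further.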

Additional observations from a re-analysis of the deposited data

How the results depend on the processing

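The difference in the number of KLF summits between conditions was 1 (AP higher) under 5 settings, which were the replicate block, no extension, an extension by 5000 bp, a score of at least 2 and merging within 500 bp. With the replicate block, p was 1 in the exact test for both number and share. That block holds only 2 pairs, so it cannot decide whether the conditions differ. Same-numbered libraries share only a number in the labels. The difference was 0.5 with the 56 highest-scoring summits of each library, and 0.5 to 1.5 when 1 library was left out. The difference in share was 0.893 percentage points with the 56 highest-scoring summits, 0.196 over summits in protein-coding genes, and 0.0237 to 0.606 when 1 library was left out. With the 56 highest-scoring summits, 0 KLF genes had a summit in both AP libraries. Within 200 bp, 2 of the 4 KLF5 summits were shared with another library, compared with all 4 within 1000 bp. By the nearest start of any annotated transcript, 4 KLF5 summits lay within 1000 bp, compared with 2 by the canonical start. The share of protein-coding genes with a summit in any library ranged from 0.976% (within 2500 bp of the canonical start, added after seeing the data) to 1.55% (extension by 5000 bp). Unknown depth, lists of unequal length and 2 libraries per condition limit all of these values.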
